A study of Mus musculus with 36 samples.

Results

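The opioid system of the mouse was followed here through 8 genes, taken as every row of the deposited gene table whose Ensembl identifier carried 1 of their names in GENCODE M21, out of 55487 genes in all. They were the receptor genes Oprm1, Oprd1, Oprk1 and Oprl1 and the peptide precursor genes Penk, Pdyn, Pomc and Pnoc. RNA sequencing had been done on 36 libraries of female mice, from the dorsal root ganglion (DRG), which holds the cell bodies of sensory neurons, and from the dorsal spinal cord, which receives their input. Mice were wild type or knockout, and were naive or had spared nerve injury (SNI), a model of neuropathic pain in which some branches of the sciatic nerve are cut and another is left intact. Each tissue thus had 4 groups, naive wild type (5 libraries), SNI wild type (4), naive knockout (5) and SNI knockout (4). The sources used here give no strain, age, time after injury, knockout allele or pooling of animals, and nothing in the labels states that each library is a separate animal, so p-values measure the spread between these libraries.

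Opioid peptides are cut out of larger precursor proteins and act on receptors coupled to inhibitory G proteins, which close calcium channels, open potassium channels and lower cyclic AMP. Enkephalins, from the Penk precursor, act mainly on the delta (Oprd1) and mu (Oprm1) receptors, dynorphins, from Pdyn, on the kappa receptor (Oprk1), and beta-endorphin, from Pomc, on mu and delta receptors. Nociceptin, from Pnoc, acts on the related receptor Oprl1, which does not bind the classical opioids. On the central endings of sensory neurons these receptors lower transmitter release, and interneurons of the dorsal horn make enkephalin, dynorphin and nociceptin.

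The stretches that code for the opioid core of the precursors are shown because they are what the peptide genes have in common. Each line gives, in 27 bases of the coding strand of GRCm38 (codons counted from the start codon), the codons for tyrosine, glycine, glycine and phenylalanine in capitals, or, in Pnoc, the same stretch with a phenylalanine codon in the first place, with the 2 codons before it and 3 codons after it.
Penk codon 100, chr4:4134328-4134354, minus strand: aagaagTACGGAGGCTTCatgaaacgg
Penk codon 107, chr4:4134307-4134333, minus strand: aaacggTACGGAGGCTTCatgaagaag
Penk codon 136, chr4:4134220-4134246, minus strand: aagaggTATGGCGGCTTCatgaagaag
Penk codon 187, chr4:4134067-4134093, minus strand: aagaggTATGGGGGCTTCatgagaagc
Penk codon 211, chr4:4133995-4134021, minus strand: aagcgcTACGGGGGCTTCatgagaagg
Penk codon 231, chr4:4133935-4133961, minus strand: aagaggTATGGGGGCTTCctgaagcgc
Penk codon 262, chr4:4133842-4133868, minus strand: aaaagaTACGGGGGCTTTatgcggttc
Pdyn codon 166, chr2:129688232-129688258, minus strand: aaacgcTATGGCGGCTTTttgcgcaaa
Pdyn codon 202, chr2:129688124-129688150, minus strand: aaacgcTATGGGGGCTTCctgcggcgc
Pdyn codon 221, chr2:129688067-129688093, minus strand: aagcgcTATGGTGGTTTCctgcggcgt
Pomc codon 205, chr12:3960367-3960393, plus strand: aagcgtTACGGTGGCTTCatgacctcc
Pnoc codon 141, chr14:65404872-65404898, minus strand: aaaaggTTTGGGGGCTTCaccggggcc
Penk held 7 such cores in its 268 codons, Pdyn 3 in 248, Pomc 1 in 235 and Pnoc 1 in 212, and each of the 12 followed directly on 2 codons for basic residues, the kind of site at which prohormone convertases cut. Among 21562 coding genes read in the same way, 71 (0.329%) held the tyrosine core, 4 held at least 2, and only Penk reached 7. All 7 Penk cores lie in exon 2 of 2, the Pdyn cores in exon 4 of 4, the Pomc core in exon 3 of 3 and the Pnoc core in exon 3 of 4 of the transcript read.

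Levels are given in CPM, estimated reads scaled by library size (counts per M), with all 36 libraries scaled together by TMM (trimmed mean of M values). Libraries held between 21.34 and 27.27 M estimated reads. A gene was called changed when its adjusted p from the edgeR quasi-likelihood test was under 0.05 over all genes tested, and ± gives the SE for a log2 fold change and the SD for a level. The naive DRG libraries A2 and A4 are titled wild type while their genotype field says knockout, and they were grouped here by that field. Their column names in the deposited data also mark them as knockout. Title letters A to C are naive and E and F are SNI libraries, so anything that goes with the letter and the injury cannot be told apart. The 10 nociceptor markers summed to between 2107 and 3946 CPM in DRG and between 65.2 and 123 CPM in cord, and the 7 markers of excitatory dorsal horn neurons to between 481 and 541 CPM in cord and between 207 and 304 CPM in DRG.

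In naive wild-type mice the peptide genes were more abundant in cord, and the receptor genes differed among themselves. The 4 peptide genes were all lower in DRG than in cord, while of the receptor genes Oprm1 was higher in DRG, Oprk1 and Oprl1 were lower, and Oprd1 was not called. Of the 8 genes 7 were thus called, where 76.7% of all 20626 genes tested were. Pdyn was at 0.384 ± 0.224 CPM in DRG and 28.1 ± 1.86 CPM in cord (n = 5 each, log2 fold change -6.21 ± 0.15). Pnoc was at 0.601 ± 0.197 and 17.9 ± 1.73 CPM (-4.90 ± 0.22), and Penk at 9.41 ± 1.77 and 163 ± 11 CPM (-4.11 ± 0.11). Pomc, the precursor of beta-endorphin and of melanocortins, was scarce in both, at 0.435 ± 0.0968 and 0.994 ± 0.314 CPM (-1.19 ± 0.22, adjusted p = 8.76e-06), and rested on 9 to 32 reads per library.

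Of the receptors, Oprm1, the main target of morphine, had 11.8 to 15.5 CPM in DRG and 5.88 to 8.84 CPM in cord, so that the groups did not overlap (0.90 ± 0.13, adjusted p = 2.35e-07). The kappa receptor gene Oprk1 was at 3.4 ± 0.716 CPM in DRG and 22.6 ± 1.91 CPM in cord (-2.73 ± 0.10). The nociceptin receptor gene Oprl1 was at 25.7 ± 4.06 and 81.5 ± 5.41 CPM (-1.67 ± 0.08). The delta receptor gene Oprd1 overlapped between tissues, at 10.2 ± 3.35 and 9.79 ± 1.09 CPM (0.05 ± 0.14, adjusted p = 0.755). In bulk tissue, fewer cells of a type and less RNA per cell cannot be told apart.

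**Figure D1:**
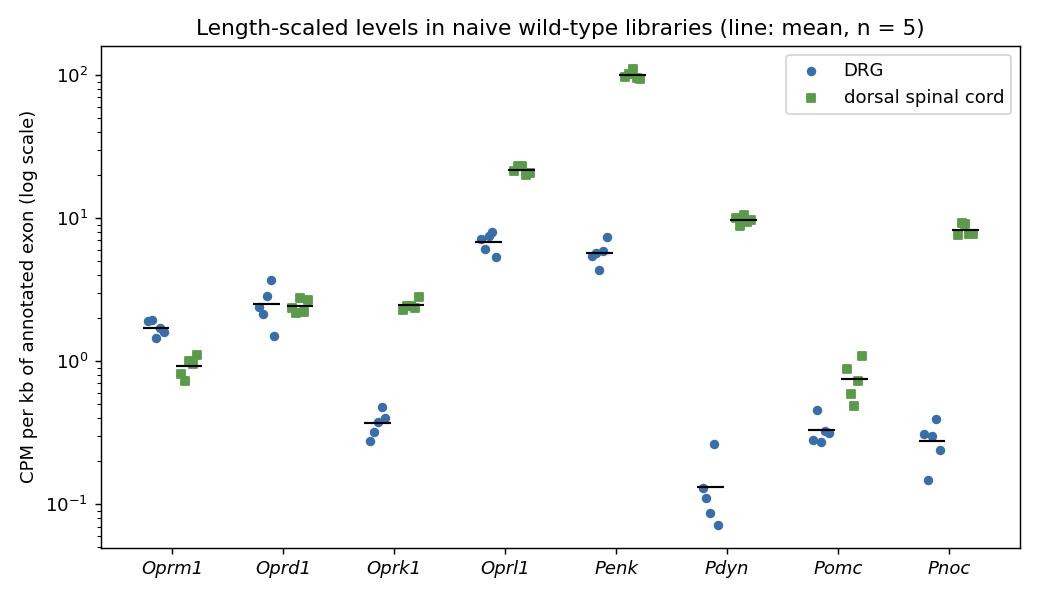
Level per kilobase of annotated exon (CPM per kb, log axis) of each gene in the 5 naive wild-type libraries of DRG (circles) and of dorsal spinal cord (squares), with the mean as a line. The peptide genes stand lower in DRG than in cord, with Penk at 5.76 against 99.8 CPM per kb, while Oprm1 stands higher, at 1.72 against 0.923.

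To compare genes with each other, CPM were divided by the length of all annotated exons of the gene, which understates genes with many alternative exons such as Oprm1 (8037 bases). In naive wild-type DRG the order of levels per kilobase was Oprl1 (6.85 ± 1.08 CPM per kb), Penk (5.76 ± 1.08), Oprd1 (2.53 ± 0.834), Oprm1 (1.72 ± 0.199), Oprk1 (0.372 ± 0.0782), Pomc (0.33 ± 0.0734), Pnoc (0.279 ± 0.0915) and Pdyn (0.133 ± 0.0777). Neighbours in this order overlapped between libraries except Penk with Oprd1 and Oprm1 with Oprk1. In naive wild-type cord the order was Penk (99.8 ± 6.74 CPM per kb), Oprl1 (21.7 ± 1.44), Pdyn (9.72 ± 0.645), Pnoc (8.32 ± 0.801), Oprk1 (2.47 ± 0.209), Oprd1 (2.44 ± 0.271), Oprm1 (0.923 ± 0.147) and Pomc (0.754 ± 0.238). There Pdyn with Pnoc, Oprk1 with Oprd1, and Oprm1 with Pomc overlapped. Oprl1 was thus the most abundant receptor transcript in both tissues on this scale.

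In naive knockout mice 6 of the 8 genes were called between DRG and cord, near the 74.8% of all genes that were. Oprm1, at 8.63 ± 1.05 CPM in DRG and 9.59 ± 1.39 CPM in cord, was not called there (-0.15 ± 0.13, adjusted p = 0.304), nor was Pomc (-0.16 ± 0.22, adjusted p = 0.548). Oprd1 was higher in DRG (14.1 ± 1.24 against 10 ± 0.679 CPM, 0.49 ± 0.14, adjusted p = 0.00256). Oprk1 (-2.27 ± 0.10), Oprl1 (-1.58 ± 0.08), Penk (-4.00 ± 0.11), Pdyn (-7.03 ± 0.17) and Pnoc (-4.25 ± 0.21) were lower in DRG, as in wild type.

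After SNI all 4 receptor genes fell in wild-type DRG and the peptide genes Penk and Pomc rose. These were 6 of the 7 genes tested, where 24.9% of all 19496 genes were called; Pdyn, with 3 to 18 reads per DRG library, did not pass the filter on low counts. The 4 receptor genes together went from between 42.9 and 63.4 CPM in naive libraries to between 21.3 and 28.4 CPM.

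Oprd1 had 9.57, 8.65, 11.6, 15 and 6.05 CPM in the naive libraries A1, A3, B1, B3 and C1, and 4.51, 2.48, 4.71 and 3.99 CPM in the SNI libraries E1, E3, F1 and F3. Every SNI library lay under the lowest naive one, and the naive libraries themselves were widely spread. The log2 fold change was -1.36 ± 0.21 (adjusted p = 8.21e-05). Oprl1 had 26.8, 23, 28.1, 30.3 and 20.2 CPM in the same naive libraries and 12.7, 9.96, 11.3 and 11.6 CPM after SNI. Its SNI libraries were close together and far under the naive ones, a change of -1.16 ± 0.11 (adjusted p = 2.82e-07).

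Oprk1 had 2.54, 2.92, 3.47, 4.4 and 3.67 CPM in naive wild-type DRG and 1.66, 1.72, 1.73 and 2.16 CPM after SNI. It was the least abundant receptor there, with 41 to 106 reads per library, and fell by 0.89 ± 0.17 on the log2 scale (adjusted p = 0.000472). Oprm1 had 15.3, 15.5, 11.8, 13.6 and 12.9 CPM in naive libraries and 5.62, 7.19, 7.1 and 10.6 CPM after SNI. Library F3, at 10.6 CPM, was the SNI library closest to the naive range, and the change was -0.85 ± 0.15 (adjusted p = 0.000379). Oprm1 (chr10:6758506-7038198, GRCm38, plus strand) shares its span with Ipcef1 and Gm10945 on the other strand. The library kit keeps the strand, but the sources used here do not say whether counting used it. Ipcef1 was at 1.14 to 3.28 CPM in all DRG libraries and Gm10945 at 0.

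**Figure D2:**
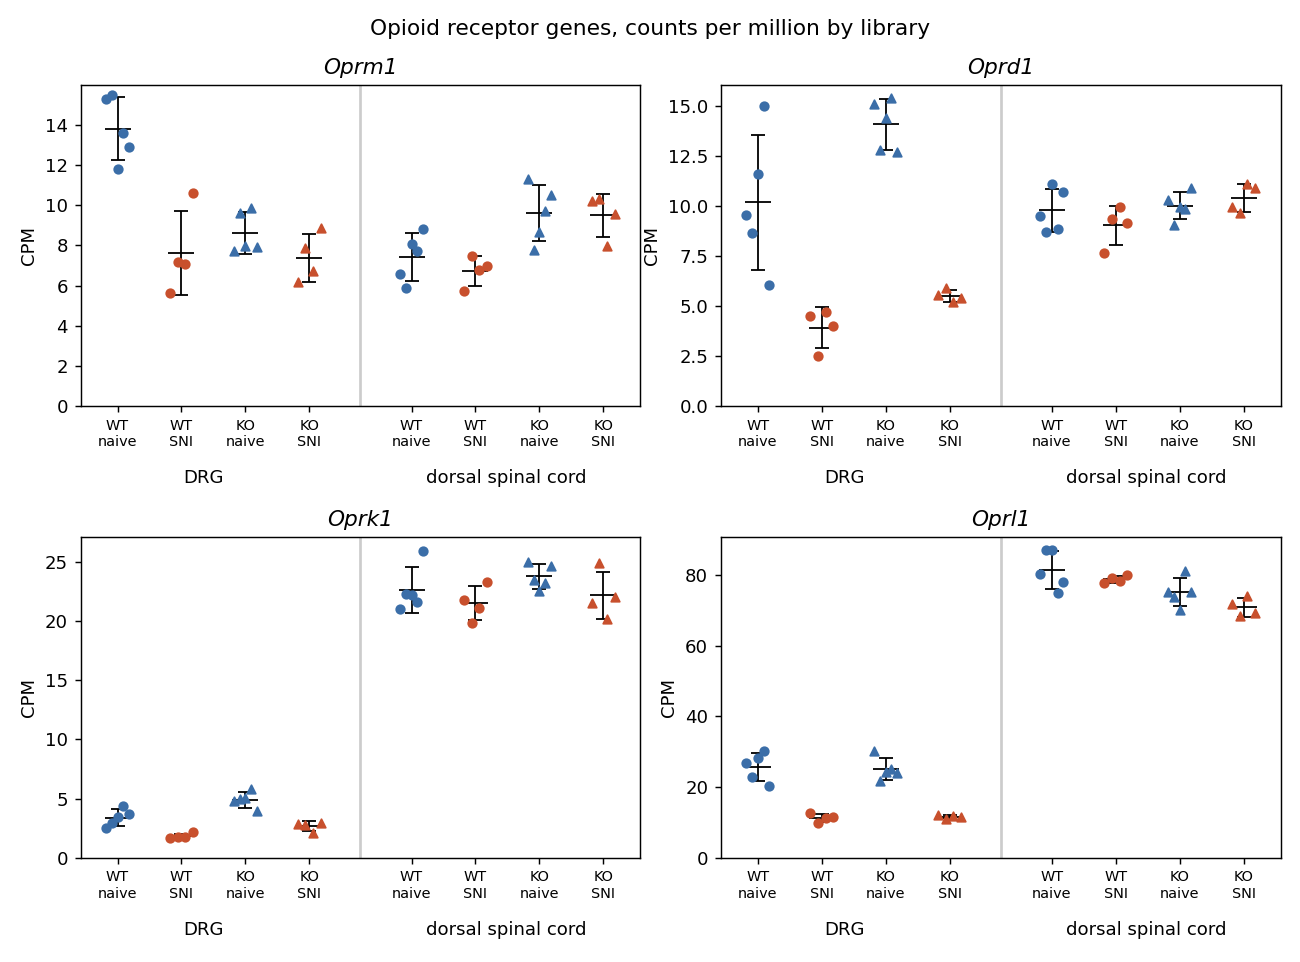
CPM of the 4 receptor genes in each library (circles, wild type; triangles, knockout; blue, naive; red, SNI), with the mean and SD of each group. Oprd1, Oprk1 and Oprl1 lie lower after SNI in DRG of both genotypes, and Oprm1 lies highest in naive wild-type DRG (mean 13.8 CPM).

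Penk had 8.87, 9.33, 7.16, 9.62 and 12.1 CPM in naive wild-type DRG and 12.4, 13.7, 14.7 and 14 CPM after SNI. The highest naive library, C1, came close to the lowest SNI library, and the rise was 0.55 ± 0.14 (adjusted p = 0.00743). Penk (chr4:4133531-4138819, minus strand) overlaps the transcript A830012C17Rik on the other strand, which was at 0 to 0.173 CPM in all DRG libraries. Pomc had 0.375, 0.601, 0.358, 0.427 and 0.415 CPM in naive libraries and 1.23, 1.18, 0.902 and 0.956 CPM after SNI. These levels came from 9 to 15 and from 23 to 31 reads per library, and the change was 1.29 ± 0.20 (adjusted p = 6.67e-05). Pnoc was low and varied widely, from 0.32 to 0.855 CPM in naive and from 0.356 to 1.06 CPM in SNI libraries (0.39 ± 0.42, adjusted p = 0.562). Pdyn was at 0.208 to 0.769 and 0.125 to 0.475 CPM.

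In knockout DRG 5 of the 7 genes tested were called after SNI, where 28.5% of all genes were. Oprd1 had 15.1, 12.8, 14.4, 15.4 and 12.7 CPM in naive libraries A2, A4, B2, B4 and C2 and 5.56, 5.9, 5.19 and 5.38 CPM in SNI libraries E2, E4, F2 and F4. The groups were far apart (-1.32 ± 0.20, adjusted p = 7.87e-05). Oprl1 had 30.2, 21.8, 24.3, 25.2 and 23.9 CPM in naive and 12.1, 11.1, 11.8 and 11.6 CPM in SNI libraries (-1.07 ± 0.11). Oprk1 went from 4.92 ± 0.676 to 2.66 ± 0.405 CPM (-0.85 ± 0.16), again with no overlap.

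Penk rose in knockout DRG from 9.58 ± 1.62 to 15.1 ± 2.21 CPM (0.69 ± 0.14, adjusted p = 0.00111) and Pomc from 0.573 ± 0.0863 to 1.1 ± 0.178 CPM (0.97 ± 0.19, adjusted p = 0.000897). Neither overlapped between groups. Oprm1 was the receptor gene not called, with 7.74, 9.64, 7.96, 9.89 and 7.9 CPM in naive and 6.17, 7.85, 6.71 and 8.85 CPM in SNI libraries. Its groups overlapped (-0.19 ± 0.16, adjusted p = 0.407). Pnoc was not called either (0.14 ± 0.40, adjusted p = 0.84).

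**Figure D3:**
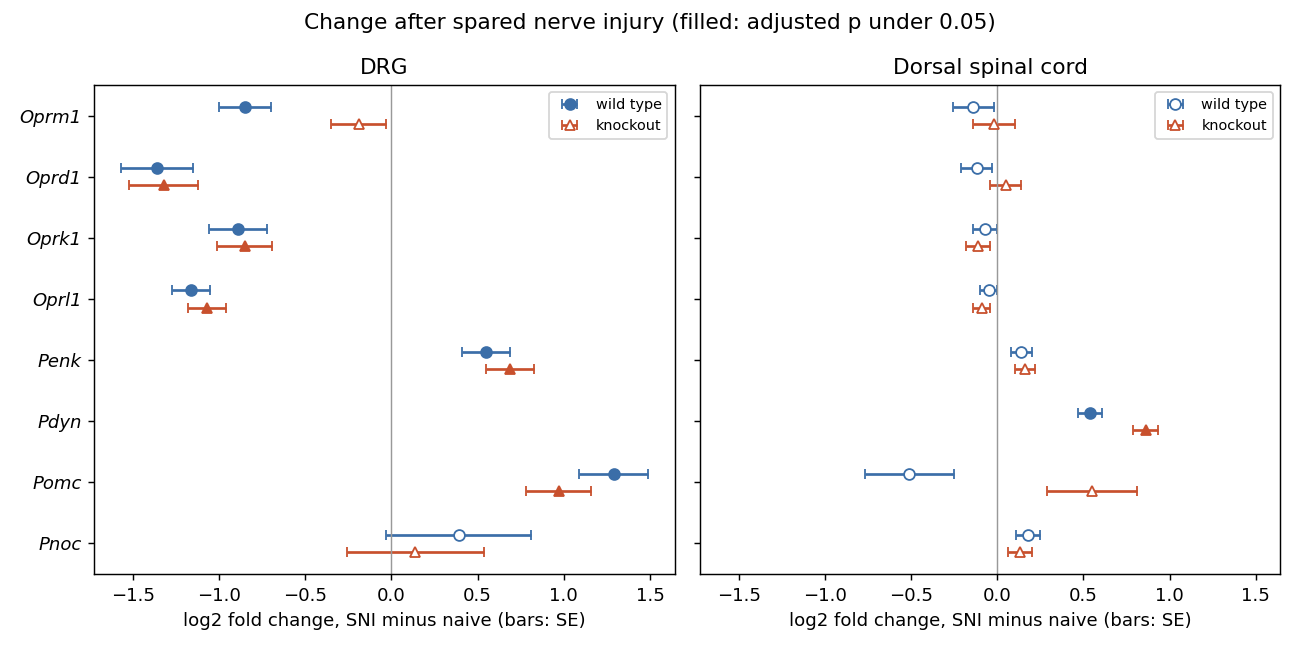
Log2 fold change of SNI against naive (bars, SE) for each gene in DRG and dorsal spinal cord, in wild type (blue circles) and knockout (red triangles). Filled symbols have an adjusted p under 0.05; Pdyn was not tested in DRG. The receptor genes lie to the left of 0 in DRG, with Oprm1 at -0.85 in wild type and -0.19 in knockout, and in cord only Pdyn is filled.

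No opioid gene passed the test of the difference between the genotypes' injury responses in DRG, where 0.0256% of all genes were called. Oprm1 came closest, with a difference of 0.66 ± 0.22 (knockout minus wild type, edgeR adjusted p = 0.702), and was the 1 gene of the 7 with an unadjusted p under 0.05. DESeq2 called none of the 7 either. For Oprd1, Oprk1 and Oprl1 the differences were 0.04 ± 0.29, 0.04 ± 0.22 and 0.09 ± 0.16, each smaller than its SE.

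Other transcripts moved in the same DRG libraries, where 24.9% of all genes were called in wild type and 28.5% in knockout. The nociceptor markers fell in 7 of 10 genes in wild type and 8 of 10 in knockout, and their summed level went from between 2857 and 3864 to between 2107 and 2615 CPM in wild type. Among them Tac1, for substance P, changed by -0.77 ± 0.08 and Trpm8, the cold channel, by -1.02 ± 0.17 in wild type. Of 6 markers of large-diameter and other sensory neurons 4 fell in wild type (list median -0.53) and 6 in knockout (-0.67). All 8 macrophage and microglia markers rose in both genotypes, from between 108 and 190 to between 287 and 481 CPM in wild type, and from between 73.9 and 118 to between 251 and 315 CPM in knockout. All 6 axon injury markers rose in both, such as Atf3 (5.92 ± 0.11 in wild type). Of 7 general neuronal markers 2 rose and 2 fell in wild type, with a list median of -0.31. In knockout 2 rose and 3 fell (-0.26). Their summed level rose, from between 4674 and 6100 to between 6573 and 8506 CPM in wild type. The knockout sum went from between 6144 and 7010 to between 7731 and 8695 CPM. The part of these shifts in the opioid receptor values was not tested.

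Genotype differed at Oprm1 in naive DRG. Of the 7 genes tested 2 were called, with Oprm1 lower and Oprk1 higher in knockout. That count is near the 28.2% of all genes called. The 5 knockout libraries of Oprm1, at 7.74 to 9.89 CPM, all lay under the 5 wild-type ones, at 11.8 to 15.5 CPM (-0.70 ± 0.14, adjusted p = 0.00274). Leaving out any 1 library, or both A2 and A4, or using the other alternatives, kept the value between -0.75 and -0.65. This comparison and the injury comparison in wild type share the naive wild-type libraries.

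Oprk1 was at 4.83, 4.97, 5.03, 5.83 and 3.93 CPM in naive knockout DRG, partly overlapping the wild-type libraries (0.51 ± 0.14, adjusted p = 0.0166), and was no longer called without A2 and A4 (adjusted p = 0.0571). Oprd1 ranged over 12.7 to 15.4 CPM in knockout libraries, overlapping the upper part of a wider wild-type range of 6.05 to 15 CPM (0.45 ± 0.18, adjusted p = 0.0676). It was called with DESeq2 (0.47, adjusted p = 0.0445) and without wild-type library B3 (0.64, adjusted p = 0.00889). Oprl1 (-0.05 ± 0.10), Penk (0.01 ± 0.14), Pomc (0.37 ± 0.20) and Pnoc (0.61 ± 0.39) were not called.

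In the same naive DRG comparison 28.2% of all genes were called. All 5 blood markers and 5 of 8 macrophage and microglia markers were lower in knockout. Of 7 general neuronal markers 3 were higher and 0 lower, and of 7 satellite glia and astrocyte markers 4 were higher and 1 lower. Of 6 large-diameter and other sensory markers 3 were higher and 2 lower, and of 10 nociceptor markers 1 and 1. General neuronal sums were 4674 to 6100 CPM in wild type and 6144 to 7010 CPM in knockout. Large-diameter sums were 1911 to 2488 and 2504 to 3145 CPM. The blood markers summed to between 721 and 3439 CPM in wild type and between 189 and 600 CPM in knockout. Library C1, with the highest blood sum, had the lowest Oprd1, Oprl1 and Pdyn and the highest Penk of naive wild-type DRG. Its Oprm1, Oprk1, Pomc and Pnoc lay between those of other libraries. C1 also had the lowest sums of nociceptor (2857 CPM), large-diameter (1911 CPM) and general neuronal (4674 CPM) markers there. Its satellite glia and astrocyte sum (1290 CPM) and lymphocyte sum (19.4 CPM) were the highest. The part of blood and of these other markers in the opioid results was not tested. The Oprm1 values without C1 lie within the range given above.

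After SNI none of the 7 genes was called between genotypes in DRG, where 5.1% of all 19496 genes were, and DESeq2 also called none. Unadjusted p-values were under 0.05 for 2, Oprk1 (0.56 ± 0.18, adjusted p = 0.077) and Oprd1 (0.49 ± 0.22, adjusted p = 0.212). Oprd1 was at 5.19 to 5.9 CPM in knockout libraries and at 2.48 to 4.71 CPM in wild-type ones there. Oprm1, at 7.4 ± 1.2 CPM in knockout libraries, was close to its wild-type level of 7.63 ± 2.13 CPM (-0.04 ± 0.16).

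**Figure D4:**
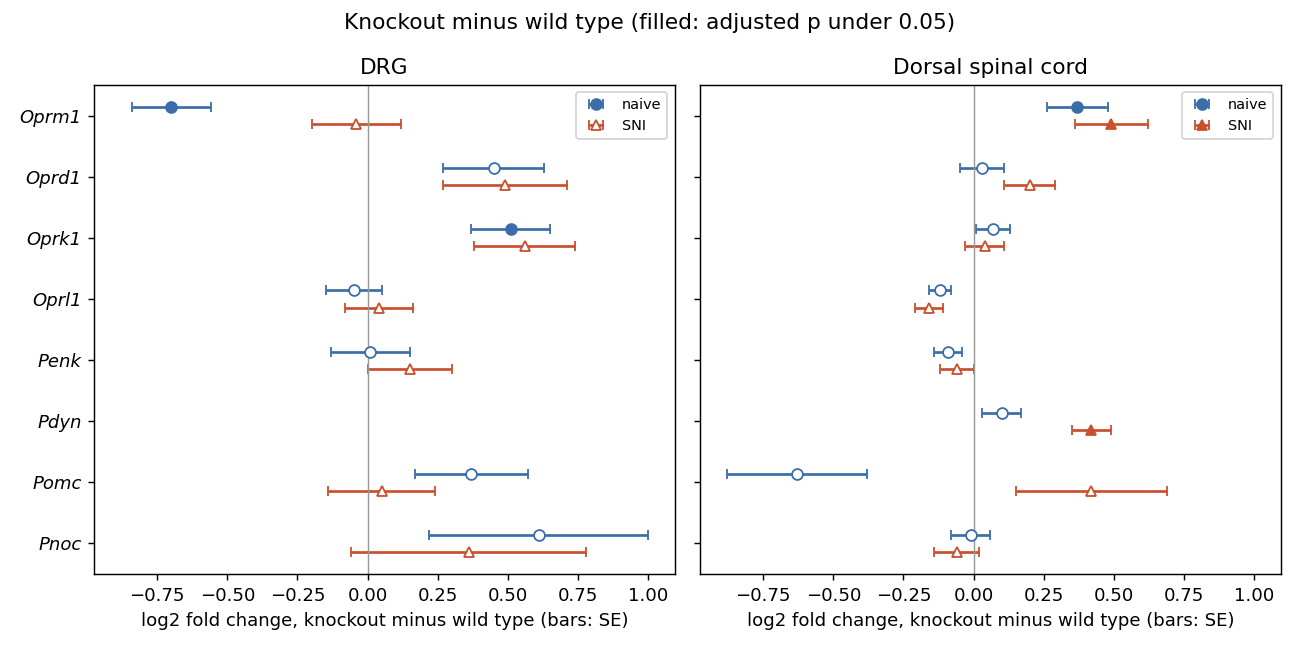
Log2 fold change of knockout against wild type (bars, SE) for each gene in DRG and dorsal spinal cord, among naive (blue circles) and SNI (red triangles) libraries. Filled symbols have an adjusted p under 0.05. Oprm1 lies at -0.70 in naive DRG and at 0.37 and 0.49 in cord, and Pdyn at 0.42 in cord after SNI.

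In the dorsal spinal cord SNI raised Pdyn in both genotypes, and no other opioid gene was called in either. This was 1 of 8 genes in wild type, where 2.88% of all 18843 genes were called, and 1 of 8 in knockout, where 4.42% were. Pdyn had 28.9, 25.7, 30.6, 27 and 28.1 CPM in naive wild-type libraries A5, A7, B5, B7 and C5 and 36, 43.1, 45.5 and 38.9 CPM in SNI libraries E5, E7, F5 and F7. All SNI libraries lay above all naive ones (0.54 ± 0.07, adjusted p = 2.6e-05). In knockout it had 28.4, 29.2, 31.2, 32.8 and 29.1 CPM in naive libraries A6, A8, B6, B8 and C6 and 48.7, 51.8, 61 and 58.2 CPM in SNI libraries E6, E8, F6 and F8. The gap between groups was wider there (0.86 ± 0.07, adjusted p = 1.21e-08).

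Pdyn was also higher in knockout than in wild type among SNI cord libraries, at 48.7 to 61 against 36 to 45.5 CPM (0.42 ± 0.07, adjusted p = 0.0008), and was not called among naive ones (0.10 ± 0.07, adjusted p = 0.324). The difference between the 2 injury responses was 0.32 ± 0.10, had an unadjusted p under 0.05 and did not pass the correction over all genes (edgeR adjusted p = 0.737). In that test 0% of all genes were called, none of the 8 among them, and 1150 genes had an unadjusted p under 0.05; DESeq2 called none of the 8 either. Pomc had the other unadjusted p under 0.05 among the 8 (1.05 ± 0.37, edgeR adjusted p = 0.737), with 11 to 32 reads per cord library.

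The other peptide genes were not called in injured cord. Wild-type Penk went from 163 ± 11 to 180 ± 8.86 CPM (0.14 ± 0.06, adjusted p = 0.298) and knockout Penk from 154 ± 2.85 to 172 ± 17.9 CPM (0.16 ± 0.06, adjusted p = 0.132). In knockout it was called without library E6 (0.22, adjusted p = 0.0161). Pnoc went from 17.9 ± 1.73 to 20.4 ± 1.45 CPM and from 17.8 ± 1.59 to 19.6 ± 0.797 CPM, with adjusted p = 0.263 and 0.449. Pomc went from 0.994 ± 0.314 to 0.701 ± 0.145 CPM in wild type and from 0.639 ± 0.0942 to 0.942 ± 0.298 CPM in knockout, log2 fold changes of -0.51 ± 0.26 and 0.55 ± 0.26. These were about as large as the change of Pdyn in wild type but rested on 11 to 32 reads per library, and neither was called.

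**Figure D5:**
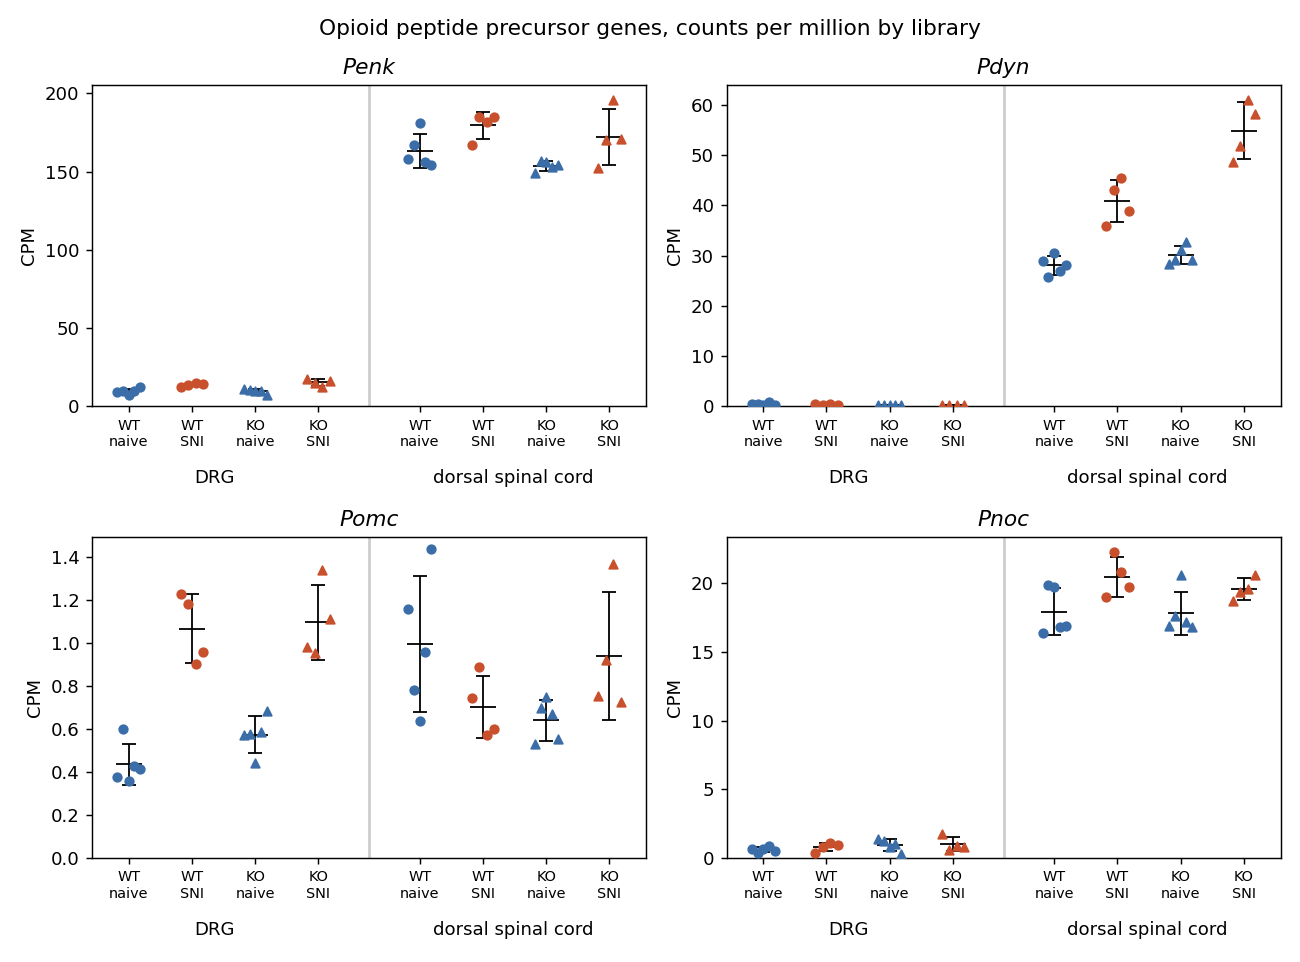
CPM of the 4 peptide precursor genes in each library (circles, wild type; triangles, knockout; blue, naive; red, SNI), with the mean and SD of each group. Pdyn in cord rises after SNI, from a mean of 28.1 to 40.9 CPM (wild type) and of 30.1 to 54.9 CPM (knockout), Pomc rises in DRG, and Pdyn lies near 0 in DRG.

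The receptor genes in cord changed after SNI by between -0.14 and 0.05 on the log2 scale over both genotypes, and none was called. Of the lists for dorsal horn neurons, the excitatory markers had 0 of 7 called in either genotype. Over all genes 2.88% were called in wild type and 4.42% in knockout. The 7 inhibitory markers had 2 higher (Gal and Npy) and 1 lower (Gad1, -0.15 ± 0.03 in wild type and -0.24 ± 0.03 in knockout). Gal and Npy are also on the list of axon injury markers, of which 6 of 6 rose in wild-type cord and 5 of 6 in knockout. The inhibitory list had medians of -0.10 in wild type and -0.07 in knockout. All 8 macrophage and microglia markers rose in cord in both genotypes, with list medians of 1.11 and 1.17. The 6 motor neuron markers had 0 called in either genotype. They summed to between 85.6 and 159 CPM in naive and between 48.8 and 155 CPM in SNI wild-type cord. In knockout cord the sums were between 94.4 and 123 CPM and between 117 and 175 CPM. Libraries A7, E5 and E6 had the highest sum and the lowest Pdyn of their groups. In naive knockout cord A8 had the highest sum and A6 the lowest Pdyn. The part of all these lists in the Pdyn value was not tested.

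Between genotypes in cord, Oprm1 was higher in knockout both in naive libraries and after SNI. In naive libraries it was 1 of 8 genes called, not above the 19.7% of all genes that were. After SNI Oprm1 and Pdyn were 2 of 8, where 6.26% of all genes were called. Oprm1 had 6.59, 5.88, 8.08, 7.7 and 8.84 CPM in naive wild-type and 11.3, 7.79, 8.68, 9.72 and 10.5 CPM in naive knockout cord, which overlap (0.37 ± 0.11, adjusted p = 0.0229). This call was lost without A5, A6, A7 or C6, with an adjusted p of up to 0.077. After SNI it had 5.71, 7.46, 6.76 and 6.98 CPM in wild type and 10.2, 10.3, 7.99 and 9.55 CPM in knockout, with no overlap (0.49 ± 0.13, adjusted p = 0.018). That call was lost without E5, E6 or E8, with an adjusted p of up to 0.07. Ipcef1, on the other strand of the Oprm1 span, was at 18.1 to 27.7 CPM in cord. In naive cord it had 21.7 ± 1.71 CPM in wild type and 25.6 ± 2.44 CPM in knockout. After SNI it had 21.3 ± 2.19 and 22 ± 1.64 CPM. The part of Ipcef1 in the Oprm1 values there was not tested.

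Oprl1 was somewhat lower in knockout cord, at 75.1 ± 3.98 against 81.5 ± 5.41 CPM in naive and 70.8 ± 2.63 against 78.8 ± 0.897 CPM in SNI libraries. With adjusted p = 0.0548 (-0.12 ± 0.04) and 0.055 (-0.16 ± 0.05) it stood just outside the threshold in both. After SNI Oprl1 was called with DESeq2 (adjusted p = 0.0443), scaling by library size only (0.0326) and limma (0.0491). It was also called in a fit on only the groups compared (0.0234). In naive cord it was called with limma (0.0201) and without B7 (0.0201), B8 (0.0283) or C5 (0.049). Pomc in naive cord (-0.63 ± 0.25, adjusted p = 0.0715) and Oprd1 in SNI cord (0.20 ± 0.09, adjusted p = 0.232) were not called; Pomc was called without B5 (-0.75, adjusted p = 0.0357).

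Other markers differed between the same cord libraries. In naive cord 19.7% of all genes were called. There 4 of 5 blood markers and 4 of 8 macrophage and microglia markers were lower in knockout. The blood markers summed to between 175 and 496 CPM in wild type and between 141 and 178 CPM in knockout, and the macrophage and microglia markers to between 185 and 212 and between 151 and 180 CPM. Of 5 Schwann cell and myelin markers 1 was lower, near that share (list median -0.65). Their sums lay between 640 and 1241 CPM in wild-type and between 388 and 933 CPM in knockout libraries. After SNI 6.26% of all genes were called. There 0 of 5 blood markers, 2 of 8 macrophage and microglia markers and 0 of 5 Schwann cell markers were lower in knockout cord. The part of these in the Oprm1, Oprl1 and Pdyn values was not tested.

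The responses of DRG and cord differed for 5 of the 8 genes when tested directly in wild type, where 12.5% of all genes were called. The injury response in DRG minus that in cord was -1.25 ± 0.23 for Oprd1, -1.12 ± 0.12 for Oprl1, -0.83 ± 0.17 for Oprk1, -0.72 ± 0.20 for Oprm1 and 1.79 ± 0.32 for Pomc. Adjusted p-values ran from 1.13e-08 for Oprl1 to 0.0146 for Oprm1, whose call was lost without library E1 (adjusted p = 0.057). Penk (0.40 ± 0.15, adjusted p = 0.0709) and Pdyn (-0.79 ± 0.33, adjusted p = 0.134) were not called. Penk was called with DESeq2 (0.42, adjusted p = 0.0322) and without C1 (0.55, 0.00538), C5 (0.46, 0.0433) or E1 (0.47, 0.0454).

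The effect of genotype in naive libraries also differed between tissues, for 3 of the 8 genes, where 19.6% of all genes were called. This comparison was added after the values had been seen. For Oprm1, lower in knockout DRG and higher in knockout cord, the DRG effect minus the cord effect was -1.05 ± 0.19 (adjusted p = 0.000405), and it was called under all alternatives run. For Oprk1 it was 0.46 ± 0.14 (adjusted p = 0.0233) and for Pomc 1.02 ± 0.31 (adjusted p = 0.0208). The Oprk1 call was lost with scaling by library size only, with upper quartile factors, without A1 and without B4, and the Pomc call without C5. Other genes were called under some alternatives, Oprd1 without B3 (adjusted p = 0.0128), Pdyn without B1 (0.0472), and Pnoc with DESeq2 (0.0374) or without C2 (0.0419).

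Genes that make, cut and transduce opioid signals were taken from lists beside the 8 members. Their counts stand beside the 24.9% (wild type) and 28.5% (knockout) of all genes called after SNI in DRG, and 2.88% and 4.42% in cord; counts near those shares say nothing particular of a list. Among 8 genes of peptide processing, 3 fell after SNI in wild-type DRG. They were Scg5, a chaperone of prohormone convertase 2 (-0.34 ± 0.08), Pcsk2, that convertase (-0.38 ± 0.13), and Pcsk1 (-0.17 ± 0.05), its relative. In knockout DRG 3 fell and 1 rose, with Cpe, the carboxypeptidase that trims the cut peptides, at -0.36 ± 0.08. In cord 1 of 8 fell in wild type (Pcsk2, -0.16 ± 0.03) and none was called in knockout. Pcsk1 was higher in knockout DRG, naive (0.24 ± 0.05) and after SNI (0.34 ± 0.05).

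Of 8 genes of peptidases that break opioid peptides down, 3 fell in wild-type DRG after SNI and 2 in knockout. Mme, the neprilysin that cleaves enkephalin, changed by -0.38 ± 0.09 in wild type and -0.26 ± 0.09 in knockout. None of the 8 was called in injured cord. Ece1, an endothelin-converting enzyme, was higher in knockout cord, naive (0.17 ± 0.04) and after SNI (0.27 ± 0.05).

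Among the 8 genes for inhibitory G protein subunits 3 rose and 1 fell in wild-type DRG after SNI, with Gnai3 at 0.24 ± 0.04, and 2 rose and 2 fell in knockout, with Gnai1 at -0.42 ± 0.10. Of 10 genes of RGS proteins and their partner Gnb5, which end G protein signals, 3 rose and 5 fell in each genotype. Rgs20 rose (1.57 ± 0.14 in wild type, 1.69 ± 0.15 in knockout) and Rgs9, a regulator of mu receptor signals, fell (-0.96 ± 0.13 and -1.09 ± 0.14). In injured cord 1 of the 10 rose in wild type (Rgs4, 0.34 ± 0.07), and in knockout 1 rose and 1 fell.

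Of 9 genes of receptor desensitisation and trafficking 3 rose and 3 fell in DRG of each genotype after SNI. Gprasp1, whose protein sorts the delta receptor to lysosomes, and its relative Gprasp2 fell by 0.44 ± 0.07 and 0.78 ± 0.07 in wild type, and Arrb2, for beta-arrestin 2, rose by 0.37 ± 0.06. Of 5 tested channel genes downstream of the receptors 2 fell in each genotype, Kcnj3 (-0.85 ± 0.11 in wild type and -0.86 ± 0.10 in knockout) and Kcnj9 (-0.65 ± 0.20 and -0.58 ± 0.20), both potassium channel subunits opened by G proteins. Of 7 adenylyl cyclase genes 1 rose and 2 fell in wild type, such as Adcy1 (-0.44 ± 0.14). Median log2 fold changes in wild-type DRG were -1.02 for the 4 receptor genes and -0.65 for the channel genes, beside -0.011 over all 19496 genes. In the same comparison the median was -0.68 for the 10 nociceptor markers and -0.53 for the 6 markers of large-diameter and other sensory neurons. The medians of the channel genes and the nociceptor markers were close. The 6 listed channel genes summed to between 207 and 261 CPM in naive and between 189 and 251 CPM in SNI wild-type libraries, which overlap. Any link between the channel genes and the nociceptor markers was not tested.

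The sequence before the start site of RefSeq transcripts was read for the genes that moved, to see whether they share sites for factors active after injury. Windows of 250 bases (GRCm38.p6) were found for 5 of the 8 genes, 10 windows in all, namely for Oprm1, Oprd1, Oprl1, Pdyn and Pomc. Shown are 1 window each of Oprm1 and Oprd1, receptor genes that fell in DRG, and of Pdyn, which rose in cord, with a motif match in capitals.
Oprm1, chr10:6788320-6788569, plus strand: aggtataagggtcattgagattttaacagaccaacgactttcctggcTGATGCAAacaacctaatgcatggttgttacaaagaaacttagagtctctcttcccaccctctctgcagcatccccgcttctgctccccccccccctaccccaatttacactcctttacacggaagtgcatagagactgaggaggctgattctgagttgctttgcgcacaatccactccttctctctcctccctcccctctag
Oprd1, chr4:132144487-132144736, minus strand: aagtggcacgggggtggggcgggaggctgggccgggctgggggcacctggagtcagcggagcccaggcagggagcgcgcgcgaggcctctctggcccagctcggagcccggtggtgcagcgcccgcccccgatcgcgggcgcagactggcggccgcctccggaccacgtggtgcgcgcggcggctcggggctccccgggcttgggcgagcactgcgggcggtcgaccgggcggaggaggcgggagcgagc
Pdyn, chr2:129699939-129700188, minus strand: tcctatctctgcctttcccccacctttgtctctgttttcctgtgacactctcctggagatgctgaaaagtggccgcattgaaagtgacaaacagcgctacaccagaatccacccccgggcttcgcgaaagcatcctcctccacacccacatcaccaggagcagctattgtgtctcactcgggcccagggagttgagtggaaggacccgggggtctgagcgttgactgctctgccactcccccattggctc
Motifs were searched on both strands. The cyclic AMP response element TGACGTCA was in 0 of the 10 windows and 1.55% of all 32851 windows, and the AP-1 site TGANTCA in 0 and 6.75%. The C/EBP-ATF element TGATGNAA was in 2, both of Oprm1 and overlapping each other, and in 3.45% of all. Its match in the window shown begins 203 bases before the start and overlaps no other motif searched. The receptor windows differed in base composition, from 80% G and C with 34 CG pairs in Oprd1 to 44.4% and 3 in the Oprl1 window at chr2:181714766-181715015, beside medians of 52.4% and 6 over all windows.

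Some genes varied with a member from library to library within groups. The likeness was Pearson's r of log2(CPM + 1) after subtracting group means, over the 18 libraries of the tissue in which the member was more abundant, given as a description, since libraries share depth and tissue makeup. For Oprm1 in DRG the closest of 14127 genes were Tbc1d23 (r = 0.96), Rapgef6 (0.92) and Socs4 (0.90). In cord, Penk was closest to Zfp784 (0.84), Tac1 (0.82) and Pex6 (0.80), Pdyn to Kif26a (0.82), Disp3 (0.81) and Fzd10 (0.78), and Pnoc to Cdc25b (0.87), Slc27a1 (0.85) and Lrrc4b (0.84). Oprd1 was closest to Epha4 (0.87), Oprk1 to Utp14b (0.85), Oprl1 to Tmem68 (0.82) and Pomc to Zfp1 (0.80).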

How the data were processed

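HISAT2, RSEM and FastQC 0.11.5 are named, with build GRCm38, in the submitters' processing notes; versions of the former 2, annotation and use of strand: not given in the sources used here. Expected counts (RSEM estimates) were deposited by the authors for 55487 genes and normalised signal values for 52999. The E1 column of the deposited count table has 9150 cells with decimal commas and 1 cell with a letter (recorded as other than counts); commas were read as points and the cell was restored from the other deposited table. All per-sample columns were used. Rounded counts were tested with edgeR 4.0.16 in R 4.3.3 (TMM, filterByExpr, robust quasi-likelihood F tests, Benjamini-Hochberg adjustment over all genes, called under 0.05), within each tissue (18 libraries, 4 groups, 14 residual degrees of freedom, 19496 genes in DRG and 18843 in cord) and over all 36 libraries between tissues (20626 genes). CPM were computed on 1 scale over the 36 libraries. SE was the log2 fold change over the square root of F. The fits were tested on simulated data. Depth of 21.34 to 27.27 M reads leaves Pdyn and Pomc in DRG on few reads. Of pathway and marker lists all counts were taken and up to 3 called genes per comparison were named by lowest adjusted p. Ipcef1, Gm10945 and A830012C17Rik were named for their overlap after values were seen. The gene targeted in the knockout is not reported here. Members and lists were chosen with earlier results of these data known. Alternatives were DESeq2 1.42.0, limma 3.58.1 on log2(signal + 1), other scalings, no filter, blocks and left-out libraries.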

Additional observations from a re-analysis of the deposited data

Results flagged for a closer look

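In 5 of 64 groups of libraries and genes, 1 library stood apart from the rest of its group by Dixon's criterion, which chance meets in about 1 group in 20. These were Oprk1 in SNI wild-type DRG (library F3, 2.16 CPM), Oprk1 in naive wild-type cord (C5, 25.9 CPM), Penk in naive knockout DRG (C2, 6.8 CPM), Pomc in naive wild-type DRG (A3, 0.601 CPM) and Pnoc in naive knockout cord (B6, 20.6 CPM).

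The injury response differed between DRG and cord of wild-type mice for 5 of 8 genes by a test of the difference itself, where 12.5% of all genes were called. DRG minus cord values were -0.72 for Oprm1, -1.25 for Oprd1, -0.83 for Oprk1, -1.12 for Oprl1 and 1.79 for Pomc. The Oprm1 call was lost without library E1. The naive genotype effect differed between the tissues for 3 of 8 genes, where 19.6% of all genes were called, in a comparison added after the values were seen. It was -1.05 for Oprm1, 0.46 for Oprk1 and 1.02 for Pomc. The Oprk1 call was lost under 4 alternatives and the Pomc call under 1.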

How the results depend on the processing

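Of 39 called results of the 8 genes, 33 stayed called under all alternatives run for them, 6 lost the call under at least 1, and 0 reversed. Opioid genes called between genotypes in naive DRG numbered 2, and 1 without libraries A2 and A4. In naive cord they numbered 1, and 2 with limma (Oprl1 added). Leaving out 1 library at a time gave 0 to 2 genes there, 1 to 2 for SNI in knockout cord and 1 to 2 for genotype in SNI cord. With the title letter as a replicate block the genotype counts were 3 (naive DRG, Oprd1 added), 0 (SNI DRG), 1 (naive cord) and 2 (SNI cord). Numbers in the column names, which the labels do not explain, linked 18 DRG and cord libraries; deviations from group means correlated by over 0.1 in 13 of the 18 pairs (r from 0.0329 to 0.206), and 16 correlated best with their own number. With that number as a replicate block the counts were 7, 6, 5 and 3 between tissues, as without it. Over all genes, 5506 were called by genotype in naive DRG (2494 higher) and 2626 without A2 and A4, with 1989 of 5734 higher under library size scaling. Fits on only the groups compared called 3216 against 4864 genes for SNI in wild-type DRG and 649 against 994 for genotype in SNI DRG. In the DRG interaction test 5 genes were called, 24 with DESeq2, 2 without A2 and A4 and 3 with the letter block. Of 3718 genes called by genotype in naive cord 1845 were higher, and 1384 of 4013 with limma. For the genotype effect between tissues 2353 of 4053 were higher, and 3314 of 4850 with DESeq2, 1514 of 3887 with library size scaling and 1744 of 4039 with upper quartile factors. For the injury response between tissues 1153 of 2580 were higher, and 1094 of 1967 without the filter. Library size and upper quartile scaling moved the median of all genes between tissues in naive wild type from 0.0638 to 0.173 and 0.187. The cause of these changes was not tested.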
